A study of Mus musculus with 6 samples.

Results

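The transcription factor genes Nr5a2, Bhlha15, Gata4 and Myc were followed across cell types, genotypes and stages of the embryonic mouse pancreas. These 4 genes were chosen by name, as regulators of the acinar programme, out of 31028 gene symbols in the RNA data. All 4 were listed in the RNA data, and Nr5a2, Gata4 and Myc were listed among the 8269 genes of both chromatin accessibility (ATAC) matrices. Bhlha15 was not analysed in the ATAC data.

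Acinar cells make the digestive enzymes of the pancreas, and they arise from progenitors at the tips of the branching epithelium. PTF1A, a basic helix-loop-helix (bHLH) factor, is required for the early pancreas and for acinar differentiation. Nr5a2 encodes LRH-1, a nuclear receptor of the liver, gut and pancreas that is required for normal acinar gene expression. Bhlha15 encodes MIST1, a bHLH factor of cells with heavy secretion that shapes the secretory apparatus of mature acinar cells. Gata4 encodes a zinc finger factor of the foregut and of several mesenchymal tissues, and it acts with Gata6 in early pancreas development. Myc encodes a bHLH leucine zipper factor that drives growth and proliferation, and mouse genetics ties it to expansion of pancreatic progenitors and acinar cells.

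The embryos were C57BL/6 mice, either Ptf1a+/+ (WT) or homozygous for a deletion of a Ptf1a enhancer, labelled Ptf1aenh-delta/enh-delta (KO). At embryonic day 10.5 (E10.5), hand-dissected pancreatic progenitor tissue pooled from 5 to 9 embryos per dataset gave 1 RNA and 1 ATAC library of each genotype. At E13.5, pancreas pooled from 6 embryos per dataset gave 1 ATAC library of each genotype. Every group was thus 1 library, so no difference below has a replicate error or a test, and all intervals are 95% intervals of counting error alone. Embryos within a pool cannot be told apart, and the barcode prefixes name July for the E13.5 WT library and September for the KO library, so at that stage genotype and month of the run name cannot be told apart.

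The RNA data counted unique molecular identifiers (UMIs), each standing for 1 captured transcript. A minimum of 1000 detected genes left 451 cells of the WT library, with a median depth of 6700 UMIs, and 369 cells of the KO library, with a median of 9856. The 2 RNA libraries shared 1 cell barcode, and ATAC libraries shared between 0 and 4. Ptf1a had 142 UMIs in the kept WT cells and 0 in the kept KO cells, a count of 0 that allows up to 0.748 UMIs per 1000000 UMIs of all genes (CPM). The ATAC data held 838 WT and 700 KO nuclei at E10.5, and 2314 WT and 602 KO nuclei at E13.5.

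Cells were clustered without the 4 genes, Ptf1a and the other tip and acinar genes. RNA clusters 0 and 5 were mesenchyme-like, led by Col3a1, Barx1 and Pdgfra. Clusters 1 and 4 were endocrine-like, led by Chgb with Neurog3 and by Ghrl with Ins1. Cluster 3 was led by cell division genes such as Ube2c and stayed unnamed. Clusters 2 and 6 had the highest levels of pancreatic progenitor and epithelium markers. Cluster 2 (72 WT and 74 KO cells) was led by Hhex, Itih2 and Spp1, with more hepatobiliary than pancreatic markers among its 10 leading genes, so it is given by number. Cluster 6 was led by P2rx1, Rhov, Nepn and Ptf1a and held 51 WT and only 2 KO cells. Clusters 2 and 6 together, 123 WT and 76 KO cells, are called the epithelial clusters. At a finer setting, fine cluster 4 (54 WT and 34 KO cells) was pancreatic progenitor/epithelium-like, led by Spp1, Nkx6-2 and Spon1, and it held most KO cells of this kind apart from a hepatobiliary-like fine cluster 7 (16 WT and 36 KO cells).

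In the RefSeq annotation of GRCm38.p6, the genome that mm10 names, Nr5a2 lies on the minus strand at chr1:136842562-136960448. Bhlha15 lies on the plus strand at chr5:144190286-144194441. Gata4 lies on the minus strand at chr14:63198914-63271712, and Myc on the plus strand at chr15:61985341-61990361. None of the 4 overlapped another gene in GENCODE M21 (0 overlapping genes each). The RefSeq promoter table, with 250 bases before and 50 after each gene start, matched 2 of the 4 genes. The entries of Nr5a2 are shown because it was the only one of the 4 genes with both promoter entries and values in both assays. Whether the deposited ATAC signal covers these start regions is unknown. The first is chr1:136960399-136960698 and the second, an inner start, is chr1:136953581-136953880, both on the minus strand. Capitals mark GATAA, the core of the GATA site, and CACCTG, an E-box letter order, on either strand (read as TTATC and, for the E-box, as CAGGTG on the other).
Nr5a2 promoter 1: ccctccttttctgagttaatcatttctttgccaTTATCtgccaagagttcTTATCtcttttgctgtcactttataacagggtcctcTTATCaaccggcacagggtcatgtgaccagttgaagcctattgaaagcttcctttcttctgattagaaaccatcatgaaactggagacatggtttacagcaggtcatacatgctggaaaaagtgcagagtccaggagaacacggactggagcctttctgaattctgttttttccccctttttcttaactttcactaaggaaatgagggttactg
Nr5a2 promoter 2: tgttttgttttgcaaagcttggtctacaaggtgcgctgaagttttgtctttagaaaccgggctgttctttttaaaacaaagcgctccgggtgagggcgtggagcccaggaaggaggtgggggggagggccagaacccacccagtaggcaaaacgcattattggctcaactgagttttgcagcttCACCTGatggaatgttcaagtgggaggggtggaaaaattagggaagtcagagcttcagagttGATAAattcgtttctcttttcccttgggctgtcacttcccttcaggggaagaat

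The first Nr5a2 promoter held 3 matches to GATAA, at 217, 200 and 164 bases before the start. The second held 1 match to GATAA and 1 to CACCTG, the latter 66 bases before the start. Of the 32851 mouse promoters of 300 bases in the table, 25.4% held GATAA and 20.2% held CACCTG on either strand. The Bhlha15 promoter, at chr5:144190036-144190335 on the plus strand, held 2 matches to CACCTG and 1 to GATAA. Neither gene's promoters held, on either strand, the E-box CAGCTG, which 16.3% of all promoters held, or the E-box CACGTG, the Myc site, which 7.15% held. The letters TGGGAA, the core of the RBPJ site, stood in 25.6% of all promoters and in 0 of these, and AAGGTCA, within the LRH-1 site, in 4.72% of all and in 0 of these. A match is a description of letters and not a bound site.

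Nr5a2 was a gene of the epithelium at E10.5. Summed UMIs in WT cells gave 82.8 CPM in cluster 2 (interval 66.7 to 101, 92 UMIs) and 77.0 in cluster 6 (55.5 to 104, 42 UMIs). The 2 epithelial values lay within each other's intervals. Mesenchyme-like cluster 0 followed at 44.4 CPM (31.4 to 61.0) and cluster 3 at 29.9 (14.9 to 53.6). The endocrine-like clusters and mesenchyme-like cluster 5 were lowest, at 9.81 CPM in cluster 1, 4.98 in cluster 5 and 0 UMIs in cluster 4. The floor of 3 UMIs stands at 9.52 CPM in cluster 4. Each neighbour in this order overlapped the next in its interval, while cluster 2 stood clear of all clusters other than 6. The KO cells gave 61.9 CPM in cluster 2 (48.7 to 77.4, 76 UMIs), 22.5 in cluster 0, 22.1 in cluster 3, 13.2 in cluster 1, 1.91 in cluster 4 and 1.53 in cluster 5. The KO values of clusters 3, 4 and 5 and the WT value of cluster 5 each rest on under 3 UMIs. In both genotypes cluster 2 was above the endocrine-like and mesenchyme-like clusters, with intervals that did not overlap.

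The share of cells with an Nr5a2 UMI gave the same contrast. It was 60.2% of WT epithelial-cluster cells (50.9% to 68.9%, median 12928 UMIs per cell) and 57.9% of KO ones (46.0% to 69.1%, median 15897). In the endocrine-like clusters it was 5.56% of 72 WT cells (median 11130.5 UMIs) and 7.91% of 139 KO cells (median 10162). After thinning every cell to 2000 UMIs, which left out 5 of 123 WT and 3 of 76 KO epithelial cells, the share was 14.4% of WT and 8.22% of KO epithelial cells, against 2.86% and 1.45% in the endocrine-like clusters. Within the WT epithelial clusters, Nr5a2 stood at 88.3 CPM in the 62 cells with a Ptf1a UMI and at 71.4 CPM in the 61 cells without one, a ratio of 1.24 (0.862 to 1.78). That interval includes 1, and the cells with a Ptf1a UMI were also deeper, at a median of 14071 against 11168 UMIs.

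Gata4 was spread over more cell types. The highest WT values were in mesenchyme-like clusters 0 and 5, at 50.3 CPM (36.4 to 67.7, 43 UMIs) and 44.8 CPM (26.5 to 70.8, 18 UMIs). Cluster 3 had 24.5 CPM, cluster 6 had 23.8 and cluster 2 had 18.9 (11.7 to 28.9, 21 UMIs). The endocrine-like clusters 4 and 1 were lowest at 12.7 and 11.8 CPM. Intervals of neighbours overlapped throughout, and those of clusters 0 and 2 did not. In KO cells the order was different at the top: cluster 2 had 32.6 CPM (23.3 to 44.3, 40 UMIs), cluster 0 had 31.9 (18.6 to 51.1, 17 UMIs) and cluster 5 had 12.3 (5.30 to 24.2, 8 UMIs). The WT excess of mesenchyme-like over epithelial cells was thus absent from the KO values, a change in order that was not tested.

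Myc was sparse, with 55 UMIs in all kept WT cells and 29 in all kept KO cells. The WT values were 29.3 CPM in cluster 6 (16.8 to 47.6, 16 UMIs), 17.5 in cluster 0 (15 UMIs) and 17.1 in cluster 2 (10.3 to 26.7, 19 UMIs), with overlapping intervals. The endocrine-like clusters together held 1 WT UMI (1.21 CPM, 0.0307 to 6.76) and 5 KO UMIs (3.32 CPM, 1.08 to 7.76). The intervals of the WT epithelial and endocrine-like clusters did not overlap, while those of the KO cells did, 5.03 to 17.0 against 1.08 to 7.76 CPM.

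Bhlha15 was close to undetected at E10.5. It had 4 UMIs in 451 WT cells (0.974 CPM, 0.265 to 2.49) and 6 UMIs in 369 KO cells (1.5 CPM, 0.549 to 3.26). In the epithelial clusters it had 1 WT and 2 KO UMIs. In the Ptf1a-led cluster 6 it had 0 UMIs in 51 WT cells, where the floor of 3 UMIs stands at 5.50 CPM. Each of these counts is near the floor of 3 UMIs, so no fold is given within a cluster. Of 11 secretory genes associated with Bhlha15 in mature exocrine cells, such as Rab3d and Gjb1, 0 reached 50 UMIs in the epithelial clusters. MIST1 marks mature secretory cells, and these values describe the gene before that stage.

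**Figure D1:**
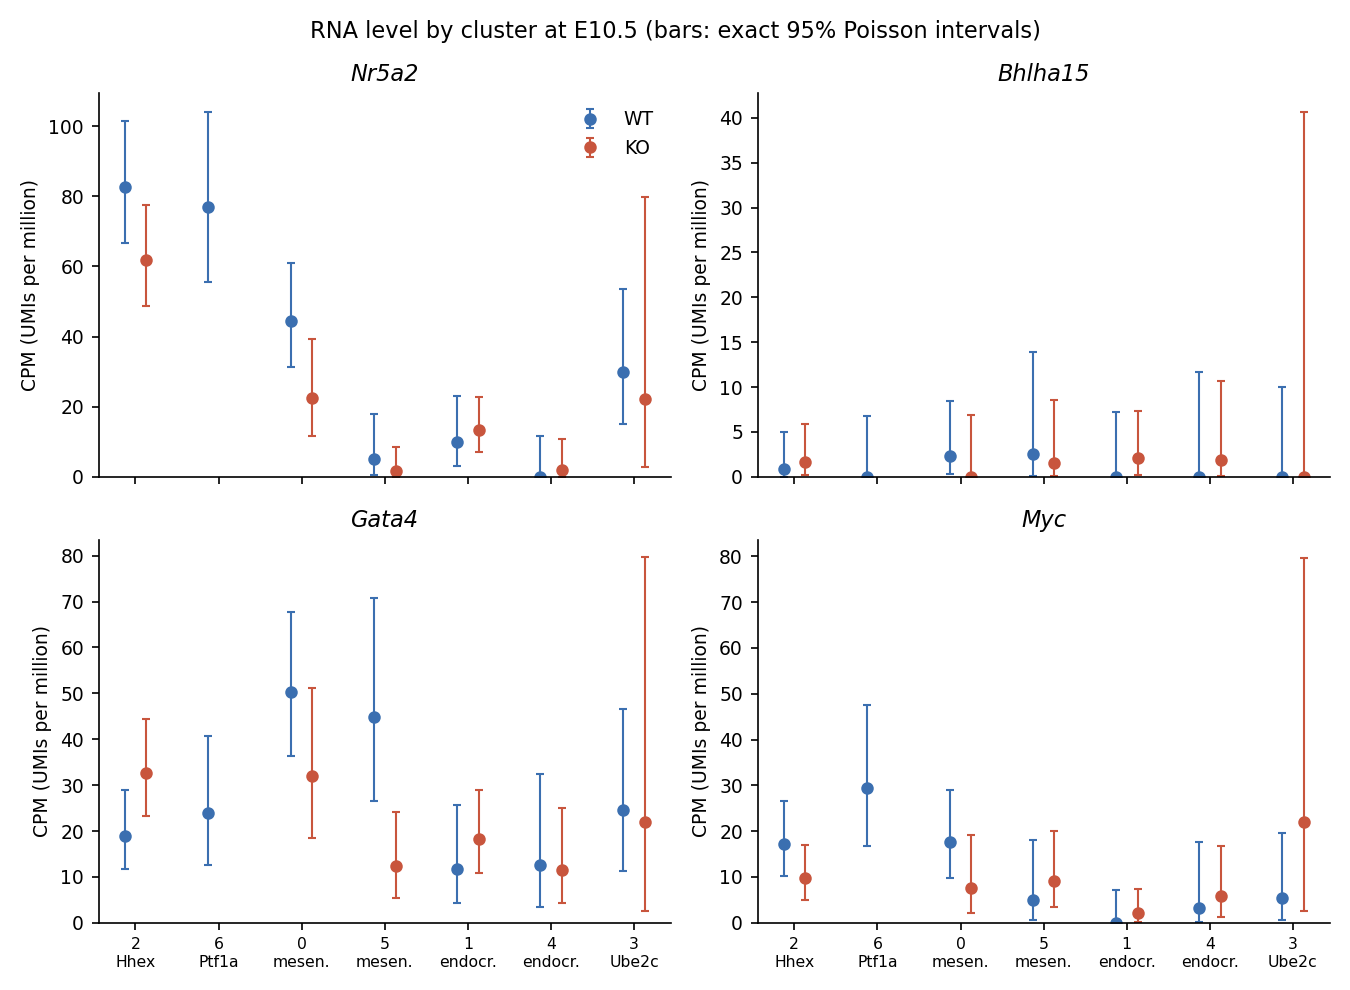
RNA level (CPM, vertical axis) of the 4 genes in each E10.5 cluster (horizontal axis) for WT (blue) and KO (red), with exact Poisson intervals as bars. KO cluster 6 has 2 cells and is left out. Nr5a2 is highest in clusters 2 and 6, Gata4 in WT clusters 0 and 5, and Bhlha15 is near 0 in every cluster shown.

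With the enhancer deleted, the 3 detected genes stood in different directions in the epithelial clusters. Nr5a2 had 134 UMIs in WT and 76 in KO cells, 80.9 CPM (67.8 to 95.8) against 61.7 (48.6 to 77.2). The KO/WT ratio was 0.763 (0.568 to 1.02), which includes 1. Gata4 had 34 and 40 UMIs, 20.5 CPM (14.2 to 28.7) against 32.5 (23.2 to 44.2), a ratio of 1.58 (0.977 to 2.58), which also includes 1. Myc had 35 and 12 UMIs, 21.1 CPM (14.7 to 29.4) against 9.74 (5.03 to 17.0), a ratio of 0.461 (0.218 to 0.910). Of the 3 genes, Myc was the one whose interval left out 1, from 47 UMIs in all. How many of all genes had such an interval was not counted. Intervals of counting error are narrow for genes with many UMIs, and those of Npm1 (0.905 to 0.988) and Ldha (1.07 to 1.22) also left out 1. In cluster 2 alone, given below, the Myc interval includes 1.

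To set these values against all genes, log2 ratios of CPM plus a pseudocount of 10 were taken for genes with at least 50 UMIs over both libraries. That pseudocount understates changes of low genes. Nr5a2 and Gata4 passed this minimum, and Bhlha15 and Myc did not. Their log2 ratios were -0.34 and 0.48, so 0 of the 2 differed by 1.5-fold, a difference that 10.5% of 6989 tested genes had. Of the tested genes 7.5% were higher and 3.03% lower by that fold, which became 3.69% and 5.22% when the libraries were scaled by the median of gene ratios. That scaling factor is 0.18 on the log2 scale, and the 3 genes kept their directions under it. Myc, at -0.66, had 2.25% of the tested genes below it.

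The cell mix of the epithelial clusters differed between the libraries, so the values were also read within clusters. Cluster 6 had 2 KO cells and could give no comparison. In cluster 2 alone the ratios were 0.747 for Nr5a2 (0.544 to 1.02), 1.72 for Gata4 (0.992 to 3.08) and 0.571 for Myc (0.253 to 1.24). The summed hepatobiliary markers in cluster 2 were 1804 CPM in WT and 3404 in KO cells, with 0 of 14 markers at 0 in either, and the summed pancreatic markers 4673 and 4337 CPM. The finer setting, where hepatobiliary-like cells form a cluster of their own, gives the values with these cells set apart.

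In the pancreatic progenitor/epithelium-like fine cluster 4, Gata4 had 17 UMIs in 54 WT cells and 32 UMIs in 34 KO cells. The level was 20.1 CPM (11.7 to 32.2) in WT and 53.6 CPM (36.6 to 75.6) in KO cells, and the ratio was 2.66 (1.43 to 5.11). The 2 intervals did not overlap, in a cluster that was added after seeing the data. How many of all genes had such intervals was not counted. Gata4 was below the UMI minimum for tested genes in this cluster. Of the 4639 genes tested there, 10.2% were at least 1.5-fold higher in KO. With the pseudocount the log2 ratio of Gata4 was 1.08, and 1.49% of the tested genes lay above it. Nr5a2 had 69 and 35 UMIs there, 81.7 CPM (63.5 to 103) against 58.6 (40.8 to 81.5), a ratio of 0.717 (0.463 to 1.09). Myc had 13 and 4 UMIs, a ratio of 0.435 (0.103 to 1.41). In hepatobiliary-like fine cluster 7, Nr5a2 intervals overlapped those of the pancreatic cells, at 100.3 CPM in WT (63.6 to 150) and 71.3 in KO cells (50.7 to 97.5). Gata4 was low there, with 1 WT and 4 KO UMIs (4.36 and 7.31 CPM).

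**Figure D2:**
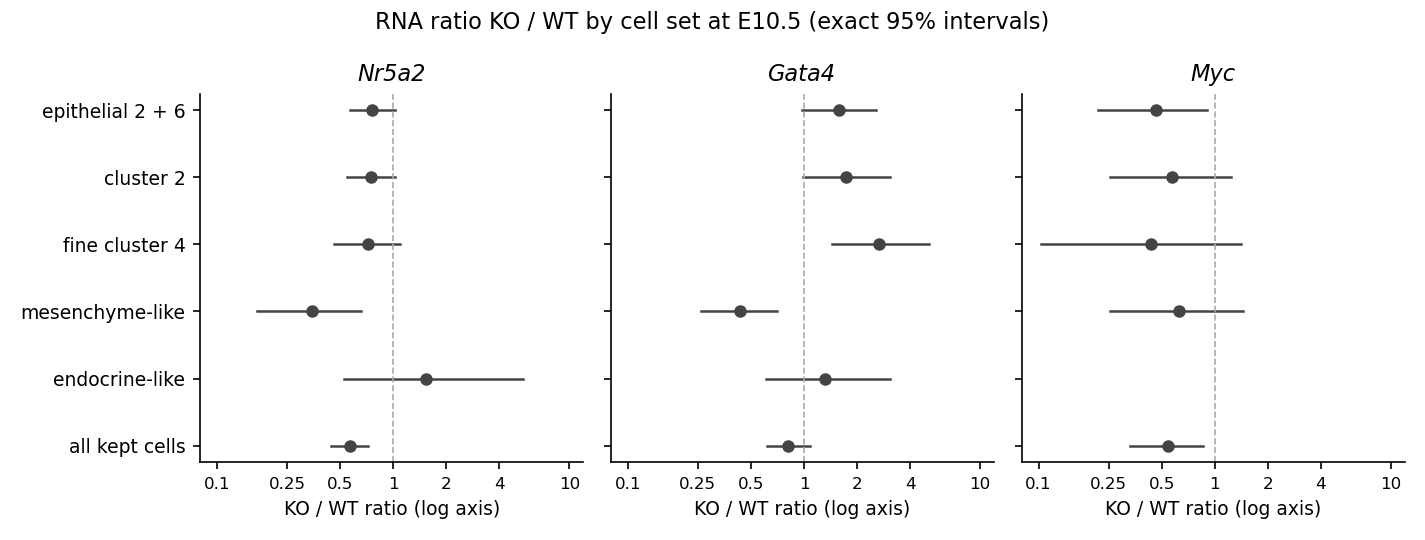
KO/WT ratio of summed RNA (horizontal log axis, 1 means equal) for Nr5a2, Gata4 and Myc in 6 cell sets, with exact intervals as lines. Sets with under 4 UMIs in a library are not drawn. Gata4 lies above 1 in epithelial sets, at 2.66 in fine cluster 4, and below 1 in mesenchyme-like cells, at 0.435.

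In the mesenchyme-like clusters (174 WT and 132 KO cells) Nr5a2 and Gata4 RNA were both lower in the KO library. Gata4 had 61 UMIs in WT and 25 in KO cells, 48.5 CPM (37.1 to 62.3) against 21.1 (13.7 to 31.1), a ratio of 0.435 (0.262 to 0.703). Nr5a2 had 40 and 13 UMIs, 31.8 CPM (22.7 to 43.3) against 11.0 (5.84 to 18.8), a ratio of 0.345 (0.169 to 0.658). Both genes passed the 50-UMI minimum here and both were lower by over 1.5-fold, at log2 ratios of -0.91 for Gata4 and -0.996 for Nr5a2. By that fold 2.07% of 6943 tested genes were lower. Nr5a2 passed that minimum only through its WT count, so its direction follows in part from the minimum. Myc had 17 and 10 UMIs, 13.5 CPM against 8.44, a ratio of 0.624 (0.255 to 1.44).

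Depth and RNA of both epithelial and mesenchymal genes differed between mesenchyme-like cells with and without a UMI of these genes. Of the 153 WT cells of cluster 0, 23 had an Nr5a2 UMI, and 17 of those also had a UMI of the epithelial gene Epcam and 7 a UMI of Ptf1a. Of the 130 without an Nr5a2 UMI, 28 had Epcam and 3 had Ptf1a. The mesenchymal genes Col3a1 and Pdgfra were detected in 15 and 13 of the 23 cells and in 51 and 36 of the 130. The cells with Nr5a2 were also deeper, at a median of 13374 against 2169.5 UMIs. Their summed pancreatic markers were 2353 against 1419 CPM and their summed mesenchyme markers 1505 against 1898 CPM. For Gata4, the 28 cells with a UMI had 1966 CPM of pancreatic and 1859 CPM of mesenchyme markers, and the 125 without one had 1630 and 1719 CPM. Their median depths were 5929.5 and 2270 UMIs. The part of depth and of these markers in the ratios was not tested. Among mesenchyme-like cells without an Epcam UMI, 109 in WT and 75 in KO, Nr5a2 had 7 WT and 5 KO UMIs, a ratio of 0.699 (0.175 to 2.56). Gata4 had 14 and 11 UMIs in these cells, 45.3 against 34.8 CPM, a ratio of 0.769 (0.316 to 1.82). Both intervals then include 1, from few UMIs. Scrublet called 2 of 451 WT cells (0.443%) and 8 of 369 KO cells (2.17%) as doublets.

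The mesenchyme-like clusters also held RNA of endocrine markers. Cluster 5 (median 20323 UMIs) summed to 12240 CPM of 19 endocrine markers in WT and 11515 in KO cells, against 512 and 388 in cluster 0. The 16 mesenchyme markers summed to 1540 CPM in WT and 1602 in KO cells of cluster 5, below its endocrine sums. In cluster 0 they summed to 1764 and 1983 CPM. Cluster 5 is thus named for its leading genes and not for a lack of endocrine RNA. The 15 pancreatic progenitor and epithelium markers summed to 1737 CPM in WT and 2032 in KO cells of cluster 0, near its mesenchyme sums. In cluster 5 they summed to 1747 and 1434 CPM. Neither cluster is thus a set of cells without epithelial RNA. In cluster 5 the Gata4 ratio was 0.274 (0.103 to 0.662, 18 and 8 UMIs), and in cluster 0 it was 0.635 (0.339 to 1.14, 43 and 17 UMIs). Nr5a2 in cluster 0 had a ratio of 0.507 (0.241 to 0.991, 38 and 12 UMIs). Barcodes under 1000 genes, 653 in WT and 446 in KO, held 46.5 and 37.3 CPM of Gata4, 17.9 and 45.9 of Nr5a2, 19.7 and 14.4 of Myc, and 0 Bhlha15 UMIs.

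In the endocrine-like clusters (72 WT and 139 KO cells) counts were low and ratios wide. Gata4 had 10 and 24 UMIs, a ratio of 1.32 (0.607 to 3.08), and Nr5a2 had 5 and 14 UMIs, a ratio of 1.54 (0.523 to 5.45). Summed over all kept cells, Nr5a2 had a ratio of 0.566 (0.441 to 0.722), Myc of 0.540 (0.332 to 0.861) and Gata4 of 0.817 (0.613 to 1.09). These sums also carry the different shares of cell types in the libraries. Endocrine-like cells, low in Nr5a2, were 72 of 451 WT and 139 of 369 KO cells.

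Other genes of the acinar programme were read in the epithelial clusters from lists. Of 16 further regulators 12 reached 50 UMIs, and 2 were at least 1.5-fold higher and 2 lower in KO, folds that 7.5% and 3.03% of all tested genes reached. Their median log2 ratio was 0.01 against 0.15 over all tested genes. Among the called genes, Ptf1a reached 50 UMIs only through the WT library. Atf6, with 19 WT and 38 KO UMIs, did so only through the KO library. The directions of Ptf1a and Atf6 thus follow from that minimum. Ptf1a had 108 WT and 0 KO UMIs, with a ratio interval of 0 to 0.0467. Xbp1, a regulator of the secretory stress response, stood at 101 CPM in WT and 47.1 in KO cells (ratio interval 0.338 to 0.629). Atf6, of the same response, stood at 11.5 and 30.8 CPM (1.51 to 4.94). Gata6 stood at 76.0 and 127 CPM (1.32 to 2.14), the same direction as Gata4 in these cells.

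Of 26 listed digestive enzyme and secretory product genes only Cpa1 and Clps reached 50 UMIs, and both did so through the WT library, so their direction follows from that minimum. Cpa1, a carboxypeptidase that also marks early progenitors, had 377 WT and 1 KO UMIs. Clps, the lipase cofactor, had 197 WT and 9 KO UMIs. Among the genes below the minimum, Cela1, an elastase, had 32 and 2 UMIs. The trypsin inhibitor gene Spink1 stood the other way, with 16 WT and 24 KO UMIs.

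Genes associated with Nr5a2 and Myc were read against the 10.5% of all tested genes that differed by 1.5-fold. Of 10 genes associated with LRH-1, 4 were tested, with 0 higher and 0 lower by 1.5-fold and a median of 0.22. They ran from Ccnd1, the D-type cyclin, at -0.53 (856 CPM in WT and 588 in KO) to Scarb1, a lipoprotein receptor, at 0.49. Of 11 Myc family and partner genes, 6 were tested, with 0 in either direction, from Mxi1 at -0.18 to Mga at 0.33. Of 18 growth genes associated with Myc all were tested, with 0 higher and 1 lower, and their median was -0.06. The lowest was Hspe1, a mitochondrial chaperonin, at 1552 CPM in WT and 986 in KO cells, and the highest Cdk4 at 737 and 953 CPM. Of 7 GATA and FOG genes, 2 were tested: Gata6 at 0.68 and the cofactor Zfpm1 at 0.28.

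In the ATAC data each nucleus carries a deposited gene signal that sums to 10000 over the 8269 genes, so a value is a share of a nucleus's signal and not a count. The median gene had a mean signal of 1.04 in E10.5 WT nuclei. At E10.5 the WT and KO means were 2.61 and 2.19 for Nr5a2, 3.32 and 3.63 for Gata4, and 2.25 and 2.20 for Myc. The log2 ratios of KO over WT were -0.25, 0.13 and -0.03. None of the 3 genes reached 1.5-fold (0 of 3), a difference that 0.256% of 8219 tested genes had, and 5.20% of the tested genes lay below Nr5a2. For comparison, Ptf1a stood at 2.43 and 1.70.

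E10.5 nuclei formed an unnamed cluster 0 (519 WT and 467 KO nuclei), a cluster 1 of nuclei with few genes above 0 (median 2060.5), and an endocrine-like cluster 2 (58 and 66). Cluster 0 was set apart by neither epithelial nor mesenchymal markers: both lists stood 0.10 (log2) above the other nuclei. In cluster 0 the means were 2.58 and 2.24 for Nr5a2, 3.57 and 3.89 for Gata4, and 2.5 and 2.12 for Myc. Endocrine-like nuclei had lower values of all 3 genes in both genotypes, at 1.59 and 1.64 for Nr5a2, 2.22 and 2.02 for Gata4, and 1.59 and 1.48 for Myc. Cluster 1, with few genes above 0, went another way for Myc, at 1.89 in WT and 2.72 in KO nuclei, where 28.7% and 34.1% of nuclei had any Myc signal. Of the 7772 genes tested in that cluster, 8.03% lay above Myc.

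At E13.5 Nr5a2 had the largest difference of the 3 genes over all nuclei, though not within cluster 0 or without the red-cell-led cluster described next. Its mean was 3.25 for WT and 1.47 for KO (log2 ratio -1.15), which put 1 of the 3 genes 1.5-fold lower, where 11.9% of 8208 tested genes were. Only 0.573% of the tested genes lay below Nr5a2. Gata4 stood at 1.98 and 1.78 (log2 -0.16) and Myc at 2.58 and 2.22 (log2 -0.21). The nuclei differed in kind: a cluster led by the red-cell genes Slc4a1, Gypc and Tal1 held 140 WT nuclei (6.05%) and 272 KO nuclei (45.2%). In that cluster Nr5a2 was nearly absent (0.0761 and 0.143) and Gata4 low (0.440 and 0.488), while Myc stood at 2.39 and 2.36. Without it the log2 ratios were -0.43 for Nr5a2, 0.45 for Gata4 and -0.29 for Myc, so the direction of Gata4 turned.

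Within the largest non-endocrine cluster of E13.5, cluster 0 (915 WT and 225 KO nuclei, led by Sdc4, Hhex and Rbpjl among others), Gata4 stood at 2.19 in WT and 3.03 in KO nuclei. That log2 ratio of 0.47 had 2.17% of the tested genes above it. Nr5a2 stood at 3.50 and 2.94 (log2 -0.25), with 10.2% of the tested genes below it, and Myc at 2.63 and 2.41 (log2 -0.13). Of the 3 genes 0 reached 1.5-fold, which 1.74% of 8230 tested genes did. The median number of genes above 0 differed between the libraries in this cluster, 4543 in WT and 5987 in KO nuclei, and its part in these values was not tested. The share of nuclei with any Gata4 signal was 81.9% in WT and 91.1% in KO, and that of Nr5a2 was 91.8% and 97.3%, although its mean was lower.

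Cluster 1 of E13.5 (877 WT and 56 KO nuclei) was the other large non-endocrine cluster, with a median of 1993 genes above 0 in WT and 1499 in KO nuclei. There Gata4 stood at 2.10 and 2.90 (log2 0.47), the direction of cluster 0. Nr5a2 stood at 3.81 and 2.26 (log2 -0.75) and Myc at 2.95 and 1.59 (log2 -0.89), both further below 0 than in cluster 0. All genes spread more widely in cluster 1. Of its 7594 tested genes, 15.1% lay below Nr5a2, 11.6% below Myc and 19.6% above Gata4. In cluster 0, 10.2% lay below Nr5a2, 24.9% below Myc and 2.17% above Gata4.

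The finer clustering split these nuclei. Fine cluster 0 (702 WT and 200 KO nuclei) gave Gata4 values of 2.22 and 3.17. Fine cluster 2 (534 WT and 41 KO nuclei) gave 1.92 and 3.36, with Nr5a2 at 3.75 and 1.97 and Myc at 2.79 and 1.25. Fine cluster 1, led by genes that include Ptf1a and Cckar, gave Gata4 values of 2.27 in 538 WT and 1.79 in 38 KO nuclei, the opposite direction. Of the tested genes, 26.2% lay below Gata4 there. The share above Gata4 was 1.62% in fine cluster 0 and 11.3% in fine cluster 2. Fine cluster 2 was sparse, with a median of 1569.5 genes above 0 in WT and 1211 in KO nuclei. There 15.6% of the tested genes lay below Nr5a2 and 11.0% below Myc. Nr5a2 in fine cluster 1 stood at 3.90 in WT, its highest WT value in a fine cluster, and at 3.42 in KO nuclei.

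In the endocrine-like cluster of E13.5 (382 WT and 49 KO nuclei) the Nr5a2 mean was 2.54 for WT and 1.14 for KO nuclei (log2 ratio -1.15). The median nucleus had 2.27 in WT and 0.806 in KO, and the share with any signal was close, 86.9% and 87.8%. Gata4 there stood at 1.80 and 1.91, and Myc at 1.68 and 1.34. At E10.5 the endocrine-like Nr5a2 values of 1.59 and 1.64 had shown no such gap. Whether the stages differ was not tested.

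**Figure D3:**
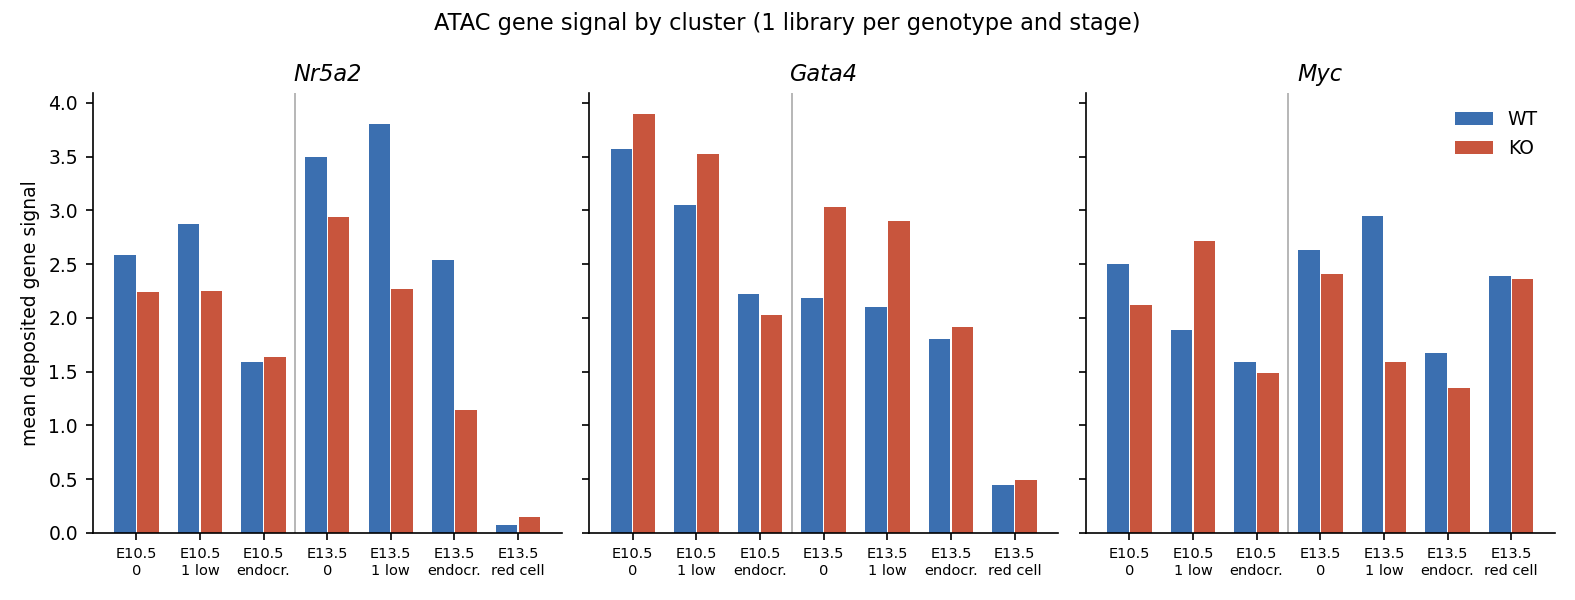
Mean deposited ATAC gene signal (vertical axis) of Nr5a2, Gata4 and Myc by cluster and stage (horizontal axis) for WT (blue) and KO (red) nuclei, 1 library per bar group and so without error bars. In E13.5 cluster 0 Gata4 is 2.19 in WT and 3.03 in KO, and in the E13.5 endocrine-like cluster Nr5a2 is 2.54 in WT and 1.14 in KO.

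The 2 stages were scaled in separate matrices, and their values stand side by side as a description. In WT nuclei the Nr5a2 mean was 2.61 at E10.5 and 3.25 at E13.5, above 95.3% and 98.0% of the 8269 genes. Gata4 went the other way, from 3.32 to 1.98, above 98.3% and then 88.6% of the genes. Myc stood at 2.25 and 2.58. Over all KO nuclei Nr5a2 had the opposite order, 2.19 at E10.5 and 1.47 at E13.5, above 91.6% and 73.7% of the genes, and 45.2% of these E13.5 nuclei were in the red-cell-led cluster. Gata4 stood at 3.63 and 1.78 in KO nuclei, and Myc at 2.20 and 2.22. In cluster 0 of each stage, the KO nuclei had the order of the WT nuclei for Nr5a2 (2.24 and 2.94) and Gata4 (3.89 and 3.03), with a smaller step for Gata4 than the 3.57 and 2.19 of WT nuclei. The clusters of the 2 stages were made separately and need not hold the same cells.

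The other acinar genes in E13.5 cluster 0 gave a context for these values. Of 10 further regulators 0 were at least 1.5-fold higher and 2 lower, Ptf1a (4.37 in WT and 1.97 in KO) and its complex partner Rbpjl (1.35 and 0.827), with a median log2 ratio of -0.16 against 0.00 over all tested genes. By that fold 1.17% of all tested genes were higher and 0.571% lower. Of 9 enzyme and secretory product genes 0 reached 1.5-fold, with a median of -0.46. They ran from Cpa1 at -0.54 to Spink1 at 0.18.

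**Figure D4:**
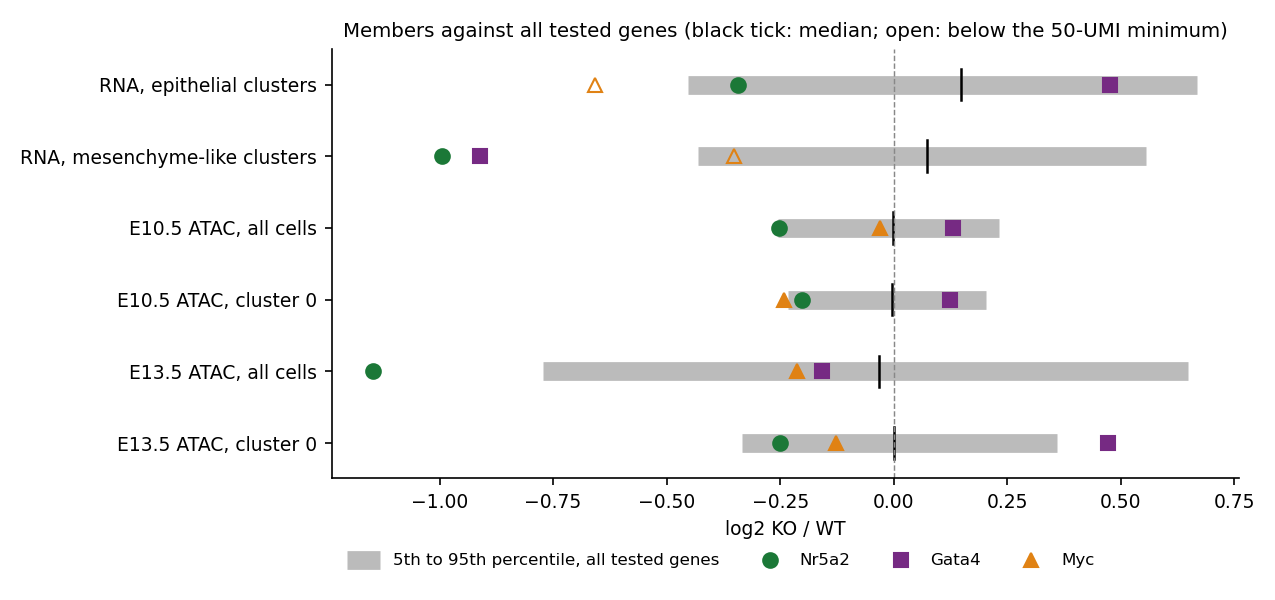
log2 ratio of KO over WT (horizontal axis) of Nr5a2, Gata4 and Myc in 6 comparisons, over the range from the 5th to the 95th percentile of all tested genes (grey) and their median (black tick). Open symbols mark Myc where it is below 50 UMIs. Nr5a2 is at -1.15 over all E13.5 nuclei and -0.25 in cluster 0, and Gata4 is at -0.16 and 0.47.

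The genes whose RNA pattern was most like each of the 3 detected genes were found by Pearson's r over 13 cluster-by-genotype groups of at least 10 cells, among 10367 genes. For Nr5a2 they were Vps36 (0.94), Onecut3 (0.94) and Afdn (0.93). For Gata4 they were Ppp4c (0.88), Sod1 (0.85) and Cxcl12 (0.85), and for Myc Hsp90aa1 (0.93), Vill (0.86) and Cdh3 (0.85). Over 14 ATAC groups of both stages and 8242 genes they were Mgst1, Nfia and Nrarp for Nr5a2 (0.97 to 0.98), Sema3c, Hoxa3 and Kitl for Gata4 (0.97 to 0.98), and Wee1, Akap7 and Ptp4a1 for Myc (0.88 to 0.92). The groups share libraries and differ in depth, and the top of a long list of genes is high by selection. Between the 3 genes themselves r was 0.47 for Nr5a2 with Gata4, 0.66 for Nr5a2 with Myc and 0.35 for Gata4 with Myc in the RNA.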

How the data were processed

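Embryonic pancreas was measured in 6 libraries, 1 for each genotype, assay and stage, made with droplet kits of 10x Genomics, per the labels' protocols. Per the file headers, the deposited RNA matrix holds whole-number UMI counts per gene symbol and cell. The deposited ATAC matrices hold a gene signal that is never negative and sums to 10000 per nucleus within rounding. For this signal, the tool and the gene windows were not given in the sources used here. Fragment depth is unknown. The build is mm10, per the submitters' processing notes. Barcode prefixes assign cells to libraries, and 0 columns of other samples were present.

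Clusters were made from 2000 variable genes (30 principal components, 15 neighbours) in scanpy 1.11.5, with leidenalg 0.10.2 at resolution 0.5 for RNA and 0.3 for ATAC. The finer setting is 0.8 and was added after seeing the data for the RNA fine cluster 4 and the ATAC fine clusters. Cluster names were rebuilt from marker lists and need at least 3 markers. The epithelial clusters have pancreatic markers at least 0.3 (log2) above the other cells. Scrublet, run on each RNA library alone, called doublets, which were kept. UMI sums carry exact Poisson intervals, shares Clopper-Pearson intervals and ratios exact conditional intervals (scipy 1.17.1), all at 95% and for counting error only. For a count of 0 a fixed floor of 3 counts is given, which lies below the upper end of its exact 95% interval. RNA log2 ratios use a pseudocount of 10 CPM and a minimum of 50 UMIs. ATAC log2 ratios are of mean signal, for genes above 0 in at least 10% of a library's nuclei. A feature was counted as higher or lower at 1.5-fold. The calculations were tested on simulated data. Alternatives covered cell filters, resolution, doublets, pseudocount, scaling, depth and cell sets.

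Named were the 4 genes, Ptf1a, the highest and lowest tested gene of each list in the epithelial clusters, and the 3 genes most like each of Nr5a2, Gata4 and Myc, since Bhlha15 had too few UMIs. Xbp1, Gata6, Rbpjl, Clps, Cela1, Spink1 and the genes leading clusters were named after their values were seen. The 4 genes and all lists were chosen with earlier results of these data known. Promoters are from RefSeq on GRCm38.p6, and the table gave none for Gata4 and Myc.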

Additional observations from a re-analysis of the deposited data

Results flagged for a closer look

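Gata4 RNA stood in opposite directions in 2 sets of clusters, by over 1.5-fold in each as a plain ratio of CPM and with at least 10 UMIs in every library. These sets are not pure cell types, since the mesenchyme-like clusters also held RNA of pancreatic epithelial markers. The ratio of KO over WT was 1.58 in the epithelial clusters (0.977 to 2.58) and 0.435 in the mesenchyme-like clusters (0.262 to 0.703). With the pseudocount of 10 CPM, the epithelial value of 0.48 (log2) is under 1.5-fold and the mesenchyme-like value of -0.91 is past it. The difference between the sets of clusters was not tested, since each genotype had 1 library. Gata6 showed the same pair of directions, with ratios of 1.68 (1.32 to 2.14) and 0.625 (0.464 to 0.836). Among mesenchyme-like cells without an Epcam UMI the Gata4 ratio was 0.769 (0.316 to 1.82) and the Gata6 ratio 0.587 (0.262 to 1.26). Both of these intervals include 1.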

How the results depend on the processing

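No paired analysis was possible because each group was 1 library, and the groups compared share fewer than 2 replicate numbers. All values here are log2 ratios of KO over WT. Of 55 RNA values under alternatives, 51 kept their direction and stayed within the counting interval. A changed pseudocount cannot turn a direction, and leaving out doublets left nearly the same UMIs. The outcome of those alternatives was thus largely fixed, and the tally does not measure certainty. In the epithelial clusters Gata4 (0.48) turned to -0.21 over all kept cells and moved to 1.08 in fine cluster 4. In mesenchyme-like cells without an Epcam UMI, Nr5a2 moved from -0.996 to -0.34 and Gata4 from -0.91 to -0.30. Thinning to 2000 UMIs left Myc at or under 3 UMIs, or at 0 in a library, and gave no value. Minimums on UMIs or on nuclei above 0 change only which genes form the background. The share of genes 1.5-fold higher in the epithelial clusters ran from 1.47% at a pseudocount of 50 CPM to 13.5% at 1 CPM.

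For ATAC, a move of over 0.2 was counted. At E10.5 the share of nuclei above 0 gave -0.0063 for Nr5a2 and turned Myc (-0.03) to 0.030, and Myc moved to -0.24 in cluster 0 and -0.28 in fine cluster 0. No cluster was led by red-cell genes at E10.5, so leaving it out gave no value. At E13.5 Nr5a2 (-1.15) was -0.44 as share of nuclei above 0, -1.40 without the extreme 10% of nuclei at each end, and -0.93 with a pseudocount of 0.5. It was -0.43 without the red-cell-led cluster and -0.38 without that and the endocrine-like cluster. It was -0.25 in cluster 0, -0.25 in fine cluster 0 and -0.19 in fine cluster 1, and stayed below 0 in all of these. The trim, by number of genes above 0, kept 1901 of 2314 WT and 431 of 602 KO nuclei. Gata4 (-0.16) turned to 0.012 as share above 0, 0.45 without the red-cell-led cluster and 0.49 without that and the endocrine-like cluster. It also turned to 0.47 in cluster 0 and 0.52 in fine cluster 0, and was -0.60 without the extreme 10% at each end. Myc (-0.21) turned to 0.37 as share above 0. The causes were not tested. RNA depth limits Bhlha15 and Myc, and ATAC fragment depth is unknown.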
